A study of Mus musculus with 9 samples.

Results

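Gene expression was compared between CD8 T cells labelled CTCF-deficient (CTCF KO) and wild-type (WT) CD8 T cells, library by library and across the autosomal genes. The genes described are the 9516 autosomal genes, of 22802 in the deposited table, with 1 FPKM or more in 3 or more of the 6 libraries compared. FPKM counts the sequenced fragments of a gene relative to transcript length and to the size of the library. There were 3 libraries in each group, 6 of the 9 in the series, and the other group carried deletions of Tcf1 and Lef1 (DKO). Donor mice of every group carried hCD2-Cre, a recombinase driven by human CD2 sequences, and Rosa26-lsl-GFP, a reporter that Cre switches on. The CTCF KO donors also carried floxed Ctcf and have the genotype label CTCF-/-, whereas the controls carried the same Cre and reporter without a floxed target. Spleen cells of the donors were depleted of non-T lineage cells, CD4+ cells and CD44 high cells, stained with the dye CTV and placed in Rag1 KO hosts. These hosts lack mature lymphocytes of the B and T lineages but keep myeloid and natural killer cells. Cells positive for CTV, TCRbeta, GFP and CD8 were sorted from the host spleens after 72 h, and the ages, sexes and numbers of the animals are not given in the sources used here.

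CTCF is a zinc finger protein that binds a long DNA motif and holds cohesin in place on chromatin. Loops that cohesin extrudes stop at bound CTCF, so that a gene and its enhancers tend to stay within one domain and are kept apart from those of the next. Naive CD8 T cells placed in a host without lymphocytes divide in response to IL-7 and self ligands, which is called homeostatic proliferation. The comparison addresses which transcripts differ in such cells where Ctcf was targeted, and whether the differing genes share a level, a family or a place on a chromosome.

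Summing over all genes gave 655811 to 702470 FPKM per library, and 9308 to 9501 autosomal genes reached 1 FPKM. No counts are in the table, so depth is unknown. Pearson correlations of log2(FPKM + 1) were 0.960 to 0.991 within groups and 0.953 to 0.979 between them. Y-linked genes summed to 90.1 to 101.0 FPKM in CTCF KO and 0.595 to 2.03 in WT. Xist was at most 0.00696 FPKM in CTCF KO and 2.16 to 2.32 in WT. The sex of the donors and the genotype therefore cannot be told apart in any result. CD8 T cell markers were present in every library: all 14 passed the level filter, summing to 9681 to 10455 FPKM in CTCF KO and 8599 to 9397 in WT, with 2 called higher. Libraries also differed within groups in the recovery of transcripts with GC-rich stretches, in an index that ran from -0.18 to 0.26 in CTCF KO and from -0.35 to 0.37 in WT.

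The targeted gene was examined first. Ctcf (chromosome 8, 108160438 to 108206822) had 20.2, 17.1 and 17.6 FPKM in libraries 1 to 3 of the CTCF KO label, and 18.6, 20.3 and 32.7 in WT. The groups overlapped, and the highest value was that of WT library 3. By limma Ctcf was not called lower, at a log2 fold change of -0.33 (95% confidence interval -0.81 to 0.15, adjusted p = 0.386) and of -0.09 without WT library 3. FPKM covers the whole gene and does not resolve single exons, so whether the floxed part of Ctcf was lost was not tested. What follows holds for the libraries labelled CTCF KO.

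Of the 9516 genes, 443 were called higher in CTCF KO (4.66%) and 532 lower (5.59%), 975 in all (10.2%). A gene was called at a Benjamini-Hochberg adjusted p under 0.05 in limma, fitted to all tested genes on log2(FPKM + 1), the scale of every fold change here. Changes of at least 1.5-fold were seen in 228 higher and 325 lower genes, and of at least 2-fold in 71 and 163. Values of the groups did not overlap for 2944 genes (30.9%), which included all 975 called genes. The median absolute log2 fold change was 0.59 in the higher genes, 0.70 in the lower genes and 0.16 over all tested genes, whose median change was 0.01. The higher genes summed to 31581 to 33914 FPKM per CTCF KO library and 22319 to 23862 per WT library, which was 5.17% and 3.53% of the FPKM of all tested genes. The lower genes summed to 44287 to 45498 against 61829 to 65426, or 7.06% against 9.68%. Counts depended on single libraries. Higher genes numbered 292, 179 and 174 when KO1, KO2 or KO3, the numbered CTCF KO libraries, was left out, and 167 and 268 when WT2 or WT3 of the WT libraries was. Lower genes numbered 352, 317 and 306 when KO1, KO2 or KO3 was left out, and 347 and 247 when WT1 or WT2 was. With the GC index as a covariate, 745 were higher and 851 lower, and these included all 975. Genes named as called kept their call on leaving out each library in turn unless the text says otherwise.

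**Figure D1:**
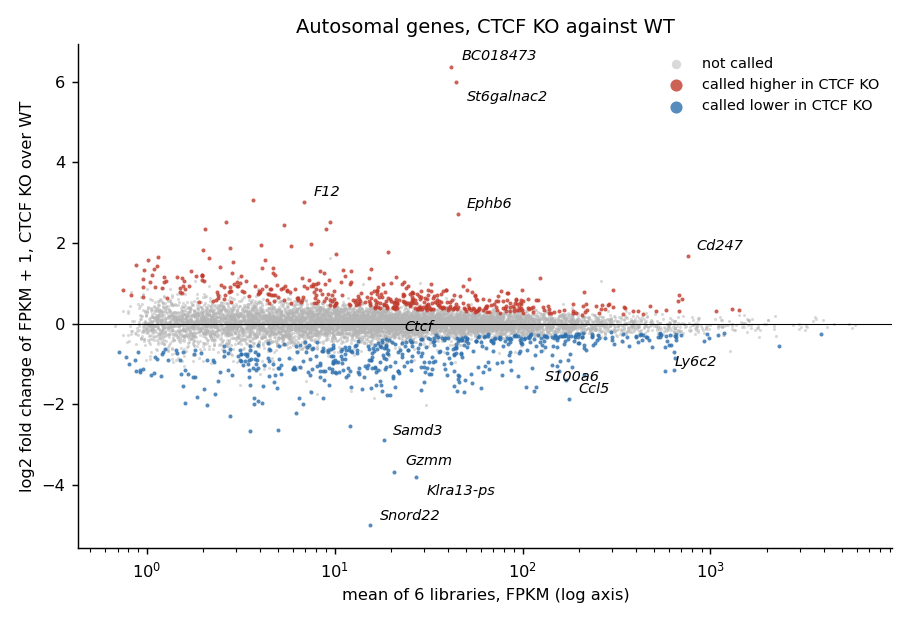
Each point is one tested autosomal gene, placed by its mean FPKM over the 6 libraries (log axis) and its log2 fold change of FPKM + 1. Red points are the 443 genes called higher in CTCF KO and blue points the 532 called lower; St6galnac2 and BC018473 stand far above the other higher genes, at 5.98 and 6.37.

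The largest rises were those of neighbouring genes on chromosome 11. BC018473 (116613481 to 116619197) had 80.2, 84.7 and 84.7 FPKM in CTCF KO and 0, 0.0350 and 0.0182 in WT. St6galnac2, which encodes a sialyltransferase (116538019 to 116555974), had 85.0, 91.4 and 87.8 FPKM against 0.404, 0.418 and 0.400. Both were thus close to 0 in every WT library and among well expressed genes in every CTCF KO library, with log2 fold changes of 6.37 (SE 0.10, adjusted p = 2.22e-07) and 5.98 (SE 0.10, adjusted p = 2.22e-07). In the 3 DKO libraries, which were not part of the comparison, they reached at most 0.0338 and 0.304 FPKM.

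Other rises were smaller and of mixed function. Ephb6, a receptor of the ephrin family (chromosome 6, 41555481 to 41570506), had 75.2, 83.5 and 78.5 FPKM against 12.8, 11.5 and 9.29, a log2 fold change of 2.72 (SE 0.12, adjusted p = 4.57e-05). F12, coagulation factor XII, had 10.5, 15.3 and 13.5 against 0.783, 0.530 and 0.834 (log2 fold change 3.03, SE 0.17, adjusted p = 0.000129). Rph3al, which encodes a Rab effector of exocytosis, had 16.6, 16.7 and 16.9 against 1.94, 2.17 and 2.16. Otos, otospiralin of the inner ear, had 10.4, 9.48 and 9.49 against 1.09, 1.26 and 0.605, and AA467197 had 16.1, 17.4 and 13.5 against 2.57, 1.49 and 2.96. Trib3, a pseudokinase gene that rises under amino acid shortage, had 11.9, 12.6 and 13.1 against 2.40, 2.84 and 2.13, and Sfn, the 14-3-3 sigma protein, 10.3, 9.67 and 9.51 against 1.41, 2.28 and 1.89. Their log2 fold changes lay between 1.93 and 2.52. In each gene the 3 CTCF KO libraries stood above the 3 WT libraries, which the rule for naming the largest rises required.

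The 12 largest rises also held genes of the exocrine pancreas. Cela2a, an elastase gene, had 7.35, 7.54 and 7.12 FPKM in CTCF KO, and Clps, colipase, 7.28, 2.0 and 6.54, while both were listed at 0 throughout WT. Prss2, a trypsinogen gene, had 6.53, 6.73 and 7.71 against 1.22, 1.65 and 0.477. Of 19 pancreatic acinar markers in the table, 8 passed the filter, 6 of these were called higher and 0 lower, against 4.66% higher among all tested genes. All of the called ones but Prss2 were under 1 FPKM in every WT library. They passed the filter through CTCF KO, so their calls are a description. Of the 19, which include genes that did not pass the filter, 16 had every CTCF KO library above every WT library. The groups did not overlap, in either direction, for 30.9% of all tested genes, a share taken only over genes that passed. The list summed to 37.3 to 49.6 FPKM in CTCF KO and 4.78 to 8.06 in WT, where 13 members were listed at 0 throughout. In CTCF KO libraries 1, 2 and 3 Cela3b, another elastase gene that did not pass the filter, had 4.73, 0.0772 and 1.41 FPKM. The part of these markers in the other rises was not tested.

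The 12 largest falls by the naming rule, which leaves out small RNAs such as Snord22, were of mixed function. Klra13-ps, a pseudogene of the Ly49 receptors, had 3.10, 3.39 and 1.87 FPKM in CTCF KO and 52.4, 53.7 and 47.8 in WT (log2 fold change -3.81, SE 0.17, adjusted p = 4.62e-05). Gzmm, granzyme M (chromosome 10, 79151765 to 79158005), had 1.91, 2.22 and 2.32 against 41.4, 38.0 and 39.2 (log2 fold change -3.69, SE 0.11, adjusted p = 7.21e-06). Every WT library was above 30 FPKM for both genes and every CTCF KO library below 5. Samd3 had 3.76, 3.85 and 3.22 FPKM against 33.6, 33.1 and 32.6, and Klre1, a natural killer receptor gene, 1.33, 0.451 and 0.249 against 9.19, 6.78 and 12.1. Plek, which encodes pleckstrin, a substrate of protein kinase C, had 3.64, 2.70 and 2.35 against 22.6, 20.7 and 20.7. These 3 genes had log2 fold changes of -2.89, -2.65 and -2.53.

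Ifng, the cytokine interferon gamma, had 2.57, 1.54 and 2.35 FPKM against 10.5, 11.7 and 12.1 (log2 fold change -1.99, SE 0.16, adjusted p = 0.000676). Ccl5, a chemokine of effector cells, was the largest fall among genes over 100 FPKM, with 66.6, 77.3 and 83.0 against 299, 268 and 266 (log2 fold change -1.87, SE 0.09, adjusted p = 6.87e-05). Cd163l1, of the scavenger receptor family, had 0.0776, 0.611 and 0.193 against 5.42, 6.28 and 4.14, and the histone gene Hist1h2ah 1.28, 0.791 and 1.02 against 4.87, 9.73 and 7.01. Cd22, an inhibitory receptor of B cells, had 0.832, 1.14 and 0.735 against 6.47, 7.31 and 5.82, and Ngp, a neutrophil granule protein, 0.807, 0 and 0 against 8.19, 6.76 and 5.60.

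Markers of some other leukocytes were also lower, and the counts of each list stand beside 5.59% lower and 4.66% higher among all tested genes. Among 13 neutrophil markers, 7 passed the filter and 6 were called lower, and the list summed to 16.3 to 21.0 FPKM in CTCF KO and 45.3 to 60.4 in WT. Most of the called ones, Ngp among them, were under 1 FPKM in every CTCF KO library. They passed the filter through WT, so their calls are a description. Of 11 B cell markers 3 passed and 2 were called lower, Cd22 and Cd79b, with sums of 35.3 to 40.8 against 59.6 to 64.0. Of 12 natural killer cell markers 9 passed and 3 were called lower, with sums of 3315 to 3427 against 3418 to 3763. Nkg7, a granule protein that CD8 T cells also express, made up most of that sum, with 3102, 3251 and 3099 FPKM against 3508, 3385 and 3160, and was not called. The 3 called lower were Klre1, Klrk1 and Klra9, the last named after its values were seen. Klra9 was also under 1 FPKM in every CTCF KO library and passed the filter through WT. By limma 0 of 5 tested erythroid and 0 of 1 stroma and endothelium markers were called, with 1 higher in each list at an unadjusted p under 0.05. Calls were 1 lower of 13 macrophage and monocyte markers, 1 higher and 1 lower of 7 dendritic cell markers, and 2 lower of 3 markers of CD4 and other T lineages. The macrophage and monocyte list summed to 185 to 199 FPKM in CTCF KO and 178 to 188 in WT. The dendritic cell list summed to 109 to 139 against 139.4 to 146, with a median log2 fold change of 0.003 in its tested members. In bulk RNA, fewer cells of a type and less RNA per cell cannot be told apart, and the part of these markers in the falls was not tested.

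**Figure D2:**
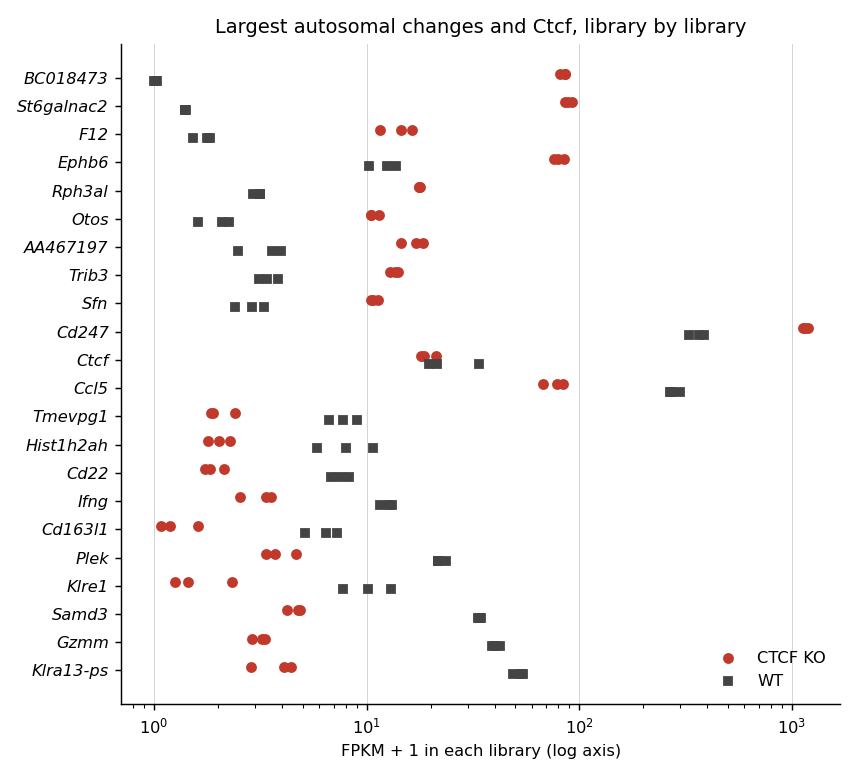
FPKM + 1 (log axis) in each library for genes of the largest rises and Cd247 (top), Ctcf (middle) and genes of the largest falls (bottom). Cela2a, Clps and Prss2 of the largest rises and Ngp of the largest falls were not drawn. Red circles are the 3 CTCF KO libraries and dark squares the 3 WT libraries. The groups are separate in every gene drawn except Ctcf, where 20.2 in CTCF KO lies among 18.6, 20.3 and 32.7 in WT. All genes drawn but Ctcf were called, and every called gene was without overlap.

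A small set of genes was near 0 in one group. Of 60 tested genes under 1 FPKM in every WT library 39 were called, and 5 had a CTCF KO mean of at least 5 FPKM. Of 46 genes under 1 FPKM in every CTCF KO library 32 were called, and 3 had a WT mean of at least 5. These genes passed the level filter through the other group, so their calls are a description. The 5 were BC018473, Cela2a, Clps, F12 and St6galnac2, and the 3 were Cd163l1, Ngp and Snord22. Snord22, a small nucleolar RNA gene, was listed at 0 in every CTCF KO library and had 32.9, 29.9 and 30.3 FPKM in WT. In the 3 DKO libraries Snord22 was also listed at 0, and it lies within a longer host transcript, so its value depends on how reads were divided between them.

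The share of genes called was larger at higher expression, and at the highest levels more genes were lower than higher. In genes with a mean under 3 FPKM, 59 of 1479 were higher and 49 lower, or 7.30% called. The share was 9.21% from 3 to 10 FPKM (88 higher and 107 lower), 10% from 10 to 30 (116 and 126) and 11.1% from 30 to 100 (124 and 122). At 100 FPKM or more 56 of 1289 genes were higher (4.34%) and 128 lower (9.93%). The spread between libraries narrowed along the same axis, with a median within-group SD of 0.23 in the lowest class and 0.09 in the highest, on the log2 scale. The smallest called change was 0.53 in the lowest class and 0.21 in the highest, and the median called change 0.99 and 0.36. In the highest class 2 genes rose and 13 fell by 2-fold or more, against 30 and 24 in the lowest.

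**Figure D3:**
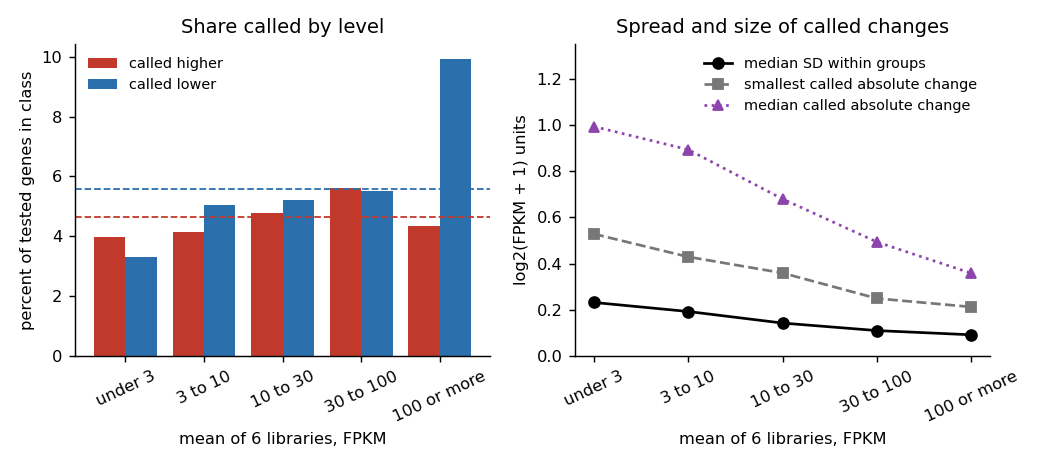
Left, percent of tested genes called higher (red) or lower (blue) in 5 classes of mean FPKM, with dashed lines at the shares over all genes, 4.66% and 5.59%. Right, the median SD within groups and the smallest and median called absolute log2 change in the same classes, all of which were smaller at higher levels.

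Cd247, the zeta chain of the T cell receptor complex, was the largest rise at high level, with 1128, 1153 and 1190 FPKM against 385, 366 and 328 (log2 fold change 1.69, SE 0.07, adjusted p = 3.56e-05). Igfbp4, an insulin-like growth factor binding protein, had 410, 373 and 379 FPKM against 188, 237 and 227. Tnfrsf18, the costimulatory receptor GITR, had 252, 282 and 276 against 167, 156 and 147, and Dad1, a subunit of oligosaccharyltransferase, 817, 887 and 840 against 504, 531 and 528. Their log2 fold changes were 0.84, 0.78 and 0.70. Mir703, also over 100 FPKM, had 177, 207 and 123 against 65.2, 57.1 and 112, and its call ended on leaving out KO1, KO2, KO3, WT1 or WT2 (adjusted p up to 0.155). Besides Ccl5, the largest falls at this level were Ube2c, a ubiquitin-conjugating enzyme of mitosis (50.8, 52.7 and 60.0 FPKM against 183, 185 and 159), S100a6, a calcium-binding protein, Ccnb2, a cyclin of mitosis (44.5, 54.1 and 60.2 against 158, 160 and 153), and Birc5, survivin. Birc5 had 92.3, 99.3 and 89.3 FPKM against 246, 247 and 245 (log2 fold change -1.39, SE 0.06, adjusted p = 3.97e-05).

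Genes were also grouped into 62 families by symbol, and each family's count is set beside the 4.66% and 5.59% of all tested genes. Kinesins, centromere proteins and condensin subunits are described first. Of 20 kinesins, motor proteins of which many act on the spindle, 0 were higher and 10 lower by limma (0 and 10 at an unadjusted p under 0.05), and 8 to 10 were lower on leaving out a library. The lower kinesins include a gene under 1 FPKM in every CTCF KO library. It passed the filter through WT, so its call is a description. Kif2c, which depolymerises microtubules at the centromere, had 8.22, 8.59 and 7.45 FPKM against 25.7, 25.9 and 23.8 (log2 fold change -1.53). Of 18 centromere proteins named CENP, 0 were higher and 9 lower (0 and 13 unadjusted; 6 to 7 lower on leaving out a library), with Cenpa, the histone variant of centromeres, at 24.8, 32.4 and 30.5 against 94.7, 81.6 and 94.8 (log2 fold change -1.60). In every kinesin and centromere gene named here each WT library was above each CTCF KO library, as in all 532 genes called lower.

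Of 18 SMC and condensin or cohesin subunits, 0 were higher and 6 lower (0 and 6 unadjusted; 5 to 6 on leaving out a library). All 6 belong to condensin, which compacts mitotic chromosomes: Ncapg, Ncaph, Smc4, Ncapd2, Smc2 and Ncapg2, with log2 fold changes from -1.06 to -0.54. Smc2 and Ncapg2 were named after their values were seen, and the call of Ncapg2 ended on leaving out KO2, KO3 or WT2 (adjusted p up to 0.0668). Of 31 Cdc and Cdca genes 1 was higher (0 when KO1, KO2, KO3, WT2 or WT3 was left out) and 8 lower (6 to 8), with Cdc20, an activator of the anaphase-promoting complex, at 50.4, 58.0 and 53.5 FPKM against 145, 132 and 125. Of 20 cyclins 2 were higher and 5 lower: Ccnb1, Ccnb2, Ccna2, Ccnf and Ccne2 fell, while Ccnd3, a cyclin of G1, and Ccnt2 had log2 fold changes of 0.43 and 0.40. Ccnd3, Ccnt2 and Ccne2 were named after their values were seen. The call of Ccnt2 ended on leaving out any of the 6 libraries and that of Ccne2 on leaving out any but KO1 (adjusted p up to 0.131 and 0.108). Of 49 histone genes 1 was higher and 12 lower, and the lower count was 6 to 10 on leaving out a library, over 1.5 times fewer for WT2 or WT3. Some of the lower genes were under 1 FPKM in every CTCF KO library and passed the filter through WT. Their calls are a description. The higher one, the linker histone H1f0, had 11.5, 12.6 and 12.2 FPKM against 4.86, 5.02 and 7.37. It was named after its values were seen, and its call ended on leaving out KO2 or WT2 (adjusted p up to 0.0536).

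Families of surface receptors and effector molecules differed in their share of calls. Among integrins 1 of 13 tested genes was called, in the TNF receptor superfamily 1 of 17 and among MHC genes 2 of 28, all of them higher. On leaving out a library these counts were 0 to 1 (0 for KO2, KO3, WT2 or WT3), 1 to 2 (2 for WT1) and 1 to 2 (1 for any but KO1). Of 14 killer cell lectin-like receptors 0 were higher and 11 lower (0 and 12 unadjusted), the largest share of any family with at least 8 tested members apart from S100. The count was 7 to 9 on leaving out a library, over 1.5 times fewer for KO2, KO3 or WT2. Klrc1, which encodes the receptor NKG2A, had 3.27, 2.57 and 3.12 FPKM against 12.8, 9.47 and 13.6, and Klrk1, NKG2D, 0.947, 1.28 and 1.51 against 5.46, 4.11 and 3.77. Many Klra genes share one locus in the table, so reads may have been divided between them and single values are uncertain. Klra1, Klra9 and Klra23 were under 1 FPKM in every CTCF KO library and passed the filter through WT, so their calls are a description. Of 3 tested granzymes Gzmm and Gzma fell, Gzma from 27.9, 25.1 and 25.1 FPKM to 9.13, 9.08 and 9.0. Of 10 chemokines 0 were higher and 4 lower (1 and 6 unadjusted; 2 to 4 lower, fewest for KO2, KO3, WT1 or WT2), among them Ccl5 and Ccl4 (13.9, 15.9 and 10.9 against 42.1, 44.6 and 44.7).

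Of 9 chemokine receptors 2 were higher, Ccr4 and Ccr9, and 3 lower, among them Cxcr5 and Ccr2. Cxcr5 had 0.828, 0.668 and 1.71 FPKM against 8.31, 4.61 and 6.15, whereas Ccr9, a receptor of gut homing, had 30.6, 34.5 and 30.1 against 20.6, 19.7 and 16.1. Ccr4, named after its values were seen, lost its call on leaving out KO3 or WT2 (adjusted p up to 0.0657). Of 59 CD antigens 3 were higher, Cd247, Cd5 and Cd9, and 10 lower. The lower count was 5 to 8 on leaving out a library, over 1.5 times fewer for KO1, KO2, KO3, WT1 or WT2. Cd44, a marker of antigen-experienced cells, had 5.70, 6.03 and 7.56 FPKM against 12.2, 13.9 and 13.4 (log2 fold change -0.94), and CD44 high cells had been depleted in both groups before transfer. Cd5, Cd9, Cd44 and Cd79b were named after their values were seen. Of 20 interleukin receptor chains 3 were higher and 3 lower, with Il2rb, the chain shared by the IL-2 and IL-15 receptors, at 92.6, 99.7 and 91.2 against 190, 195 and 191. The lower chains were the same in number on leaving out each library, while the higher ones numbered 1 to 3, fewest for KO2, KO3 or WT2.

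Of 8 tested S100 genes, which encode small calcium-binding proteins, 0 were higher and 7 lower (0 and 7 unadjusted; 4 to 6 on leaving out a library, over 1.5 times fewer for KO1, KO3 or WT2). S100a6 (chromosome 3, 90416816 to 90418336) had 59.4, 63.3 and 55.5 FPKM against 175, 172 and 186, a log2 fold change of -1.56 (SE 0.07, adjusted p = 4.62e-05). S100a10 had 493, 492 and 521 against 714, 666 and 642. S100a8 and S100a9 are also neutrophil markers, and had 9.96, 10.6 and 9.58 against 22.6, 25.4 and 20.4, and 4.72, 7.85 and 4.76 against 15.8, 16.9 and 10.6. The call of S100a9 ended on leaving out KO1, KO3, WT1 or WT2 (adjusted p up to 0.0907).

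Membrane transporters and tRNA synthetases had more higher than lower genes. Of 149 solute carriers, membrane transporters, 17 were higher (11.4%) and 2 lower (1.34%). The higher count was 5 to 13 on leaving out a library, over 1.5 times fewer for any library but WT1, and the lower count 1 to 2 (fewer for KO1, KO3, WT1 or WT2). Slc12a7, a cotransporter of potassium and chloride, had 121, 133 and 135 FPKM against 89.8, 86.9 and 77.6. Slc25a45, of the mitochondrial carriers, had 34.3, 35.8 and 35.0 against 22.1, 20.1 and 21.6, and Slc15a2, a peptide transporter, 1.55, 1.52 and 1.97 against 0.378, 0.202 and 0.139. The groups were separate in these 3 genes, as in all called genes. Slc15a2 was under 1 FPKM in every WT library and passed the filter through CTCF KO, so its call is a description. The symbol pattern also took in Slc4a1ap, named after its values were seen, whose product is not itself a transporter and whose call ended on leaving out any library (adjusted p up to 0.153). Slc6a19, a transporter of neutral amino acids, fell, with 4.14, 5.63 and 7.39 against 22.1, 17.8 and 16.1 (log2 fold change -1.56).

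Of 34 aminoacyl-tRNA synthetases, which charge tRNAs, 6 were higher (17.6%) and 0 lower (14 and 0 unadjusted). The higher genes were Cars, Aars, Mars, Sars, Tars2 and Yars, with log2 fold changes from 0.37 to 0.71. The count ran from 1 to 8 on leaving out a library, over 1.5 times fewer or more for KO2, KO3, WT2 or WT3. Each of these genes but Cars lost its call for at least 1 library: Aars for KO2, Mars for KO2, KO3 or WT2, Sars and Tars2 for KO2, KO3, WT2 or WT3, and Yars for any but WT1 (adjusted p up to 0.131). Tars2 and Yars were named after their values were seen. Cars had 47.4, 53.2 and 61.2 FPKM against 35.5, 32.2 and 30.1 and kept its call on leaving out each library (adjusted p up to 0.0487). Genes of the response to amino acid shortage were chosen after their values were seen. Asns, asparagine synthetase, had 31.8, 29.9 and 32.3 FPKM against 17.6, 15.7 and 16.0 (log2 fold change 0.89, adjusted p = 0.0013), and Ddit3, a stress transcription factor, 46.4, 48.9 and 56.0 against 29.6, 29.5 and 24.5 (log2 fold change 0.83, adjusted p = 0.00436). Atf4, the transcription factor that induces both, had 66.3, 71.3 and 67.9 against 66.2, 60.9 and 58.5 and was not called (adjusted p = 0.266).

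Several large families had shares of calls near or under those of all genes. Of 243 Zfp genes, mostly zinc finger proteins like CTCF itself, 4 were higher and 3 lower, or 2.88% against 10.2% of all tested genes. The higher ones included Zfp868 (64.6, 57.6 and 73.1 FPKM against 40.7, 36.7 and 31.6) and the lower ones Zfp64 (10.2, 9.68 and 9.08 against 18.98, 15.6 and 15.8). The number of higher Zfp genes was 2 to 4 on leaving out a library, fewest for KO2, KO3 or WT2. Among 49 DEAD and DEAH box helicases limma called 0 (3 higher and 1 lower at an unadjusted p under 0.05), and among 28 TRIM genes 0 (4 and 2 unadjusted). Of 43 proteasome subunits 1 was lower (0 to 4 on leaving out a library, so that each library moves it by over 1.5 times), and of 92 cytoplasmic ribosomal protein genes 0 were higher and 5 lower (3 and 28 unadjusted). The ribosomal count was 1 to 3 on leaving out any library, and 74 of the 92 members had a negative change, with a median log2 fold change of -0.09 that was -0.03 under quantile normalization. With the GC index as a covariate 17 ribosomal protein genes were lower and 2 higher, and 7 proteasome subunits were lower. The same covariate gave 8 higher and 6 lower Zfp genes, 19 lower histone genes, 10 higher tRNA synthetases, 6 higher interleukin receptor chains, 6 higher CD antigens and 6 higher MHC genes. Clustered protocadherins (69 in the table) and Hox genes (41) had 0 members that passed the level filter, so neither family could be compared.

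**Figure D4:**
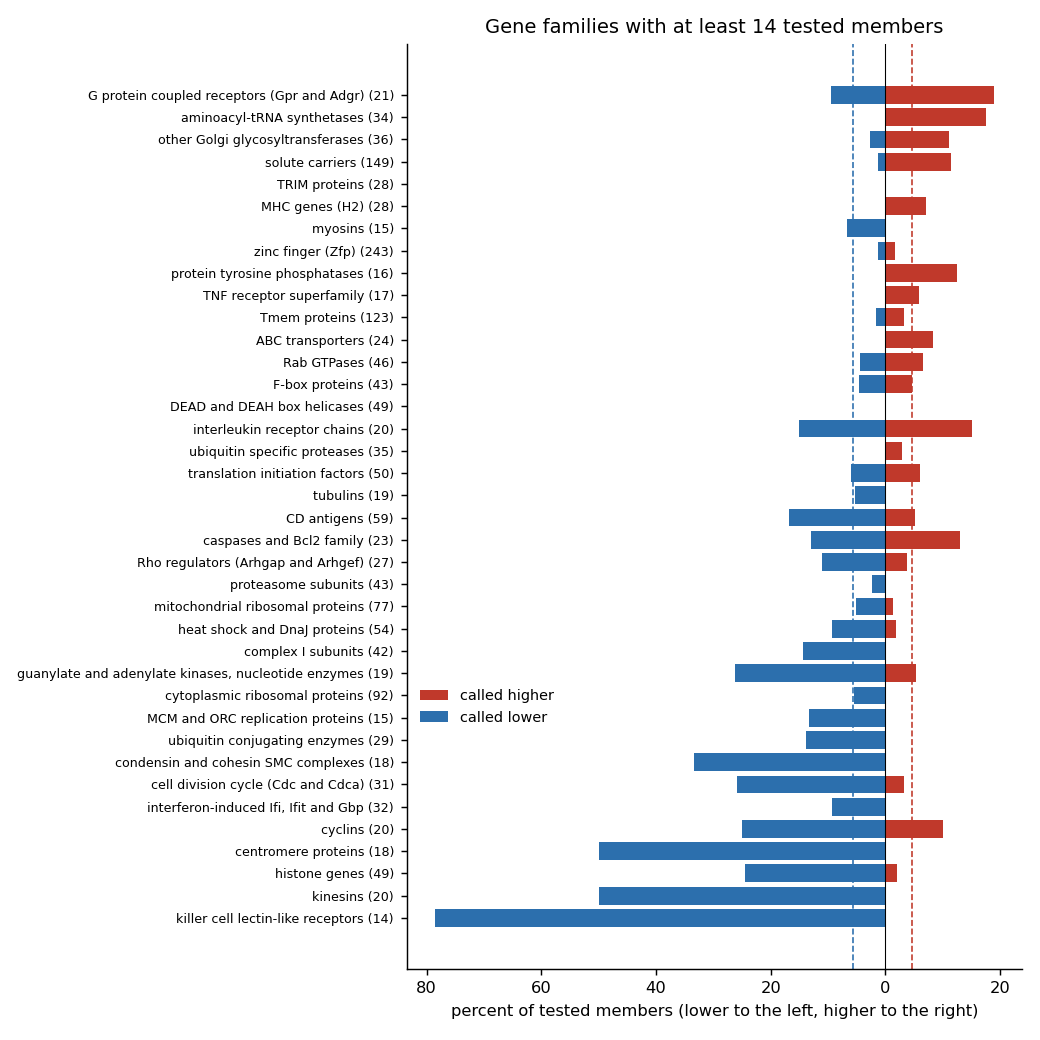
Percent of tested members called lower (blue, to the left) and higher (red, to the right) in each family with at least 14 tested members, whose number stands in brackets; dashed lines mark 5.59% and 4.66% of all tested genes. Killer cell lectin-like receptors, kinesins and centromere proteins extend farthest to the left, and helicases and TRIM genes have no bar.

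Grouping by the letters at the start of each symbol, without a chosen list, gave 161 stems with at least 8 tested members. Of these 48 had 0 called genes, of which 4 had at least 20 tested members, and 6 had at least 40% called. Over all tested genes 10.2% were called, 4.66% higher and 5.59% lower. The stems at 40% or more were Klra (7 of 8), S, which holds the S100 genes (7 of 12), Kif (10 of 20), Rgs, regulators of G protein signalling (2 higher and 2 lower of 8), Ly (5 of 11) and Abhd, hydrolases (4 higher and 2 lower of 15).

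Adjacent genes were then compared, taking each pair of consecutive tested autosomal genes that do not overlap, 8884 pairs in all. In 110 pairs both genes were called the same way, 49 higher and 61 lower, and in 56 they were called in opposite ways. Of the tested neighbours of a higher gene 11.8% were also higher, against 4.66% of all genes, and 6.76% were lower. Of the neighbours of a lower gene 12.1% were also lower, against 5.59%, and 5.54% were higher. The Pearson correlation of log2 fold changes across all pairs was 0.12, a description over pairs that share genes and libraries. Same-way pairs numbered 52 with both changes at 1.5-fold or more, and 31 to 58 on leaving out any single library.

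The shares were also taken by distance and symbol, with no test of a difference between classes. Up to 10 kb apart, 11.7% of neighbours of higher genes were higher and 11.6% of neighbours of lower genes lower, and from 10 to 100 kb these shares were 12.1% and 14.2%. Over 100 kb they were 11.5% and 9.90%, with a correlation of 0.03 against 0.11 and 0.17 in the nearer classes. Neighbours called the opposite way were 3.40%, 8.18% and 10.3% of those of higher genes in the 3 classes from near to far, and 3.34%, 7.12% and 5.94% of those of lower genes. The 341 pairs with the same symbol stem held 19 of the 110 same-way pairs, and in them 18.8% and 41.6% of neighbours were called the same way. In the 8543 pairs with different stems the shares were 11.6% and 9.64%. Another 613 pairs overlapped or shared a locus and were left out, since their reads may have been divided between the genes.

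**Figure D5:**
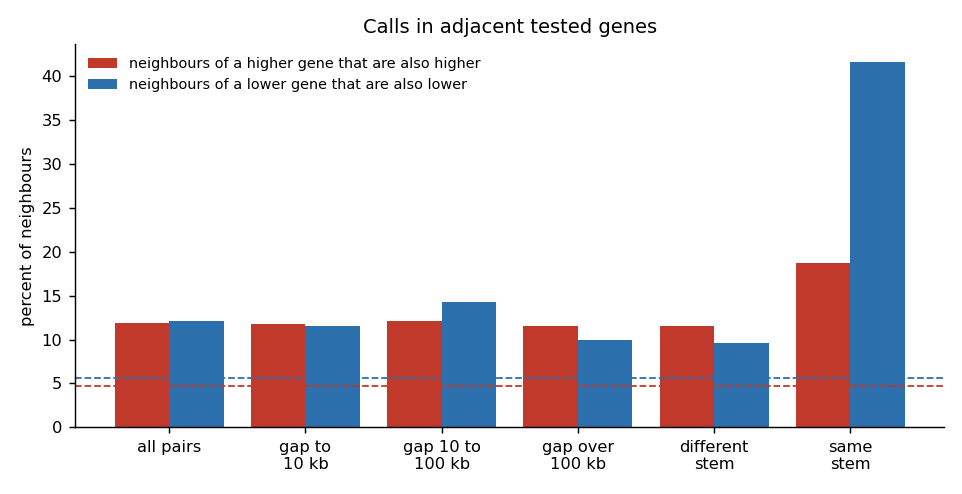
Percent of tested neighbours of a called gene that were called the same way, for all 8884 adjacent pairs and by distance or symbol stem; red is for higher and blue for lower genes, and dashed lines mark 4.66% and 5.59% of all genes. The bars lie above the dashed lines in every class, and lower pairs with the same stem reach 41.6%.

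The same-way pairs with the largest changes, ranked by the smaller of each pair, began with St6galnac2 and BC018473, 57.5 kb apart. A gene on the other side of St6galnac2, 1810032O08Rik, chosen after its values were seen, completed a run of 3 with 25.5, 31.4 and 27.4 FPKM against 18.9, 19.3 and 20.7. Its log2 fold change was 0.49 (adjusted p = 0.0251), and the call ended on leaving out KO2, KO3, WT1 or WT2 (adjusted p up to 0.103). Next were Cd163l1 and 5830411N06Rik on chromosome 7, 16.2 kb apart, the latter with 0.977, 1.88 and 1.90 FPKM against 12, 11.8 and 9.01. On chromosome 10, Ifng (117878103 to 117882948) and Tmevpg1, a long noncoding RNA gene 56.1 kb away, fell together. Tmevpg1 had 0.846, 0.904 and 1.39 FPKM against 7.98, 6.77 and 5.67, a log2 fold change of -1.93 (SE 0.17, adjusted p = 0.00101).

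Runs of at least 3 consecutive tested genes called the same way numbered 16, with 7 higher, 9 lower and 56 genes. The 3 longest had 8, 5 and 4 genes. On chromosome 6 Klrk1, Klrc1, Klra1, Klra13-ps, Klra23, Klra3, Klra6 and Klra7 were all lower across 776.6 kb, but they stand at 3 distinct loci in the table. The call of Klra3 ended on leaving out KO2, KO3, WT1 or WT2, that of Klra6 also for KO1, and that of Klra7 for any of the 6 (adjusted p up to 0.113, 0.144 and 0.154). On chromosome 3 S100a6, S100a8, S100a9, S100a11 and S100a10 were lower across 2951.8 kb, and the call of S100a11 ended on leaving out KO1, KO3 or WT2 (adjusted p up to 0.0739). Also on chromosome 6, Try4, Try5, Prss2 and Ephb6 were higher across 318.2 kb. Try4 and Try5, trypsinogen genes that lie with Prss2 within the T cell receptor beta locus, had 2.46, 2.11 and 1.53 FPKM against 0 in every WT library, and 1.63, 2.38 and 2.29 against 0, 0.510 and 0. All 3 trypsinogen genes belong to the pancreatic acinar list, as do Cela2a on chromosome 4 and Clps on chromosome 17, which were also higher. The part of that list in this run was not tested. The shorter runs, of 3 genes each, included Uchl5, Rgs2 and Rgs1 (lower), Pbk, Esco2 and Ccdc25 (lower), Adamtsl4, Ecm1 and Tars2 (higher) and Kcnn4, Smg9 and Plaur (higher), named after their values were seen except Adamtsl4 and Kcnn4. Each of these runs held genes that lost their call on leaving out a library. These were Uchl5 for any but WT3 and Rgs2 for any but KO3 (adjusted p up to 0.103 and 0.102), Ccdc25 for any of the 6 (up to 0.154), Tars2 as above, Kcnn4 for any but KO1 (up to 0.105) and Smg9 for KO2 (0.0536). Adamtsl4 was under 1 FPKM in every WT library and passed the filter through CTCF KO, so its call is a description.

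Neighbours called in opposite ways were ranked in the same manner, and those named here are among the first of that ranking. On chromosome 11 Birc5 (117710551 to 117717057) fell while Tha1, a threonine aldolase gene 12.2 kb away (117729263 to 117734840), rose, with 25.2, 29.1 and 27.1 FPKM against 12.3, 13.1 and 13.5 (log2 fold change 1.01, SE 0.09, adjusted p = 0.00109). On chromosome 6, 36.0 kb from Klre1, Gabarapl1, an autophagy gene, had 13.5, 9.74 and 13.7 against 4.14, 4.25 and 4.76. Fasl, the Fas ligand, fell on chromosome 1 (1.47, 1.37 and 1.20 against 5.80, 5.46 and 5.98), and its tested neighbour Tnfsf4, the ligand OX40L, was higher 362 kb away. The call of Tnfsf4 ended on leaving out WT2 (adjusted p = 0.0586). Further such pairs were Sapcd2 and Npdc1, where the call of Sapcd2 ended on leaving out WT2 (adjusted p = 0.0577), and Mki67 and Mgmt.

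By chromosome, the share of tested genes called ran from 7.05% on chromosome 16 to 14.1% on chromosome 6 and 12.8% on chromosome 19. Without genes that share a locus, chromosome 6 had 13.2% and chromosome 19 13.8%. Within 5 Mb of Ctcf on chromosome 8, 69 genes were tested and 4.35% called, against 10.2% of all tested genes and 8.75% on chromosome 8. Zdhhc1 and Esrp2 were higher and Acd lower. Acd, a subunit of the telomere complex shelterin, had 49.1, 53.5 and 57.2 FPKM against 86.5, 88.2 and 84.1. The call of Zdhhc1 ended on leaving out any library but WT3, and that of Esrp2 for KO2 or WT2 (adjusted p up to 0.0911 and 0.0636). Esrp2 was under 1 FPKM in every WT library and passed the filter through CTCF KO, so its call is a description.

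Promoters were searched for the core of the CTCF motif, 12 letters with more than one base allowed at some, on both strands, from 250 bases before to 50 after each start. The RefSeq promoter table (GRCm38.p6) held windows for 7248 of the tested genes, and 73 of these contained a match (1.01%), against 4 of 343 higher genes (1.17%) and 5 of 397 lower genes (1.26%). Over all 32851 windows, 183 matched (0.557%). A match is a description of letters and not of binding. The upstream sequences of the 2 matching genes with the largest rises and the 2 with the largest falls are given to show the matched letters, in capitals, in their place. Their positions are on GRCm38.p6, unlike the deposited gene positions, and these genes except S100a6 were chosen after their values were seen.
Cacnb1, 95 bases before its start (chr11:98018411-98018512, minus strand): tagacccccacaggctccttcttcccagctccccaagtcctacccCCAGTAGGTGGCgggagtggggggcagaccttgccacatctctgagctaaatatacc
Nabp2, 183 bases before its start (chr10:128409977-128410078, minus strand): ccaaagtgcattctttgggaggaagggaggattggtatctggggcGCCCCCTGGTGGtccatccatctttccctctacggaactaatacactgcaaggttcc
Dapk2, 96 bases before its start (chr9:66158085-66158186, plus strand): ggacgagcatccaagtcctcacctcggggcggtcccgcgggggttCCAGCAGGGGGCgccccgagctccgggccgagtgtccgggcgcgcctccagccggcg
S100a6, 102 bases before its start (chr3:90612747-90612848, plus strand): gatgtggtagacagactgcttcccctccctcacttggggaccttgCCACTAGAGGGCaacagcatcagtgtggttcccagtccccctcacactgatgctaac

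Nabp2, which encodes a single-stranded DNA binding protein, had 97.4, 110.9 and 108.6 FPKM against 66.8, 59.0 and 58.6 (log2 fold change 0.77, SE 0.08, adjusted p = 0.00202). Cacnb1, a calcium channel subunit, had 6.22, 5.38 and 5.16 against 2.62, 2.1 and 3.23, and its call ended on leaving out KO1, KO2, KO3 or WT2 (adjusted p up to 0.0693). Dapk2, a kinase linked to cell death, had 0.0278, 0 and 2.02 against 4.49, 4.19 and 3.14, so that a single CTCF KO library stood near WT. Its call ended on leaving out any library but KO3 (adjusted p up to 0.142). S100a6, described above, kept its call on leaving out each library. The promoter table held no window for St6galnac2, BC018473 or Klra13-ps.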

How the data were processed

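Each RNA library was deposited as a column of FPKM per gene in one table. Per the submitters' processing notes, the authors used FastQC, TopHat2 2.1.0 and Cuffdiff 2.2.1 and the mm9 and mm10 builds; scaling, annotation and strand handling are not given in the sources used here. Positions are the deposited ones, 1-based; of 21443 autosomal symbols matched to GRCm38, 962 started within 1000 bases of it, so they are not on GRCm38. The authors' group means, fold changes and q-values were not used.

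Genes with at least 1 FPKM in 3 of the 6 libraries (9833, of which 9516 autosomal) were fitted on log2(FPKM + 1) with limma 3.58.1 in R 4.3.3, with an intensity trend and two-sided moderated tests. Adjustment by the Benjamini-Hochberg method ran over all 9833. The log2 scale understates changes of low genes. The labels do not say whether libraries came from separate animals, so p-values measure only the spread between them. On simulated data of 9833 genes, 100 genes were changed 1.5-fold and 100 were changed 2-fold. Of these 40% and 71% were recovered, with 9 false calls. The simulated noise was independent between genes and libraries, whereas real libraries differed in the GC index across many genes. These values are therefore not error rates of the real calls. Families were defined by 62 symbol patterns.

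The rule for named genes took Ctcf, the 12 largest rises and falls without overlap whose higher group averaged 5 FPKM or more (without predicted genes, small RNA genes or receptor gene segments), 5 per direction at 100 FPKM or more, up to 4 called members per family by adjusted p, 6 adjacent pairs of each kind, runs of at least 4 genes and genes that switched from under 1 to at least 5 FPKM. The genes, lists and rules were chosen with earlier results of these data known. A GC index per library was the mean log2 deviation, from the mean of all 6, of 1959 genes with a 100-base window of at least 80% GC minus that of the others, with 99.42% of tested genes matched to a GENCODE M21 transcript. Same-numbered libraries did not deviate together (r from -0.701 to 0.076), so the numbers were not treated as pairs. Differently numbered libraries reached r = 0.704 (KO1 with WT3) and 0.618 (KO3 with WT1). Whether libraries of the groups shared a batch was not tested. Alternatives covered normalization, pseudocount, filter, model and each library left out. Of the tested autosomal genes, 1159 share their locus with another, 94 of them called, and are uncertain. Some genes that the rule names are not reported here.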

Additional observations from a re-analysis of the deposited data

How the results depend on the processing

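The main counts were 443 higher and 532 lower genes and 110 adjacent pairs called the same way. With array weights 965 were higher and 985 lower, with 287 pairs, whereas a GC index covariate, chosen after seeing the data, gave 745 and 851, with 217 pairs. Leaving out one library gave 167 to 333 higher and 247 to 425 lower genes and 31 to 58 pairs. The pairs also fell to 71 with median centring, to 61 without a filter and to 52 at 1.5-fold or more. With the replicate number as a block, 90 genes were higher and 199 lower, with 22 pairs. The same-numbered libraries did not deviate together, whereas some differently numbered ones did, with r up to 0.704. Pseudocounts of 0.1 and 5, quantile normalization, a mean of at least 5 FPKM, all 9 libraries in the fit, autosomal genes only, no intensity trend and genes without a GC-rich window kept each of the gene counts within 1.5 times. In these settings 0 called genes were called in the opposite direction. Ctcf was not called in any of them, with a log2 fold change of -0.48 to -0.09 on leaving out a library. Depth is unknown, so counting error cannot be given; at 3 libraries a group and the observed spread, changes under 0.53 on the log2 scale were not called in genes under 3 FPKM.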
